A study of Mus musculus with 2 samples.

Results

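Interferon-stimulated genes are the genes that cells switch on after sensing interferon. The set described here was given as 39 mouse gene symbols, matched to the gene symbols of both count matrices, and 38 of them were found among the 31053 genes of each matrix; Mx2 was not analysed here. The rule set apart 9 GTPase genes, made up of 5 guanylate-binding protein genes (Gbp2, Gbp3, Gbp4, Gbp5 and Gbp7) and 4 p47 immunity-related GTPase genes (Iigp1, Igtp, Irgm1 and Irgm2), from the other 29. RNA was captured on an array of barcoded positions from frozen mouse calvarial bone, which forms the roof of the skull, taken on day 7 after a defect was made. The Blank section came from a defect that received no collagen/nHA, and the Col_nHA section from a defect repaired with it. Strain, sex and age of the mice were not given in the labels, and neither was the size of the defect. Each group held 1 library, so nothing here is checked against replicates or carries a p-value. Every ratio is Col_nHA over Blank and compares these 2 libraries, not the treatments. Brackets hold exact 95% intervals, which cover counting error only.

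Interferons are secreted proteins that warn neighbouring cells of infection or damage. Type I interferons act through the receptor chains IFNAR1 and IFNAR2 and lead to a complex that holds STAT2 and IRF9 and binds the interferon-stimulated response element (ISRE). Interferon-gamma, made chiefly by T and NK cells, acts through IFNGR1 and IFNGR2 and switches genes on through the gamma-activated site (GAS), and the guanylate-binding and p47 GTPases are known for their strong response to it. In healing bone, interferons are known to restrain the formation of osteoclasts and to activate macrophages.

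The letters of both elements were looked for in the 250 bases before the start of each gene in the RefSeq promoter table for GRCm38.p6, which held 28 of the 38 genes. The ISRE core was searched as GAAANNGAAA, which reads TTTCNNTTTC on the other strand, and the GAS as TTCNNNGAA, which reads alike on both strands. The stretches below are those of the genes to which the comparisons return: Isg15 and Oas1a with the largest ratios, Ifit1 and Ifit3, Irf1 with a GAS alone, and 5 GTPase genes. Each is written 5′ to 3′ along the gene's own strand, with matching letters in capitals and up to 20 bases on each side.
Isg15 (chr4:156200855-156200916, - strand): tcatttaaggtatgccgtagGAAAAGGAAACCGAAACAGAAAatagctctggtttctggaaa
Oas1a (chr5:120907526-120907643, - strand): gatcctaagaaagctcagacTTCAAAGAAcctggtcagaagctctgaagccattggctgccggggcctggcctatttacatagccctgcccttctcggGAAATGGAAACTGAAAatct
Ifit1 (chr19:34640765-34640833, + strand): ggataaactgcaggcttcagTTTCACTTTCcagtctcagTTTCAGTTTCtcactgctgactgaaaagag
Ifit3 (chr19:34583353-34583436, + strand): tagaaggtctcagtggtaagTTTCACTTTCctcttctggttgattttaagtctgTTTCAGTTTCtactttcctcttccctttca
Irf1 (chr11:53769904-53769952, + strand): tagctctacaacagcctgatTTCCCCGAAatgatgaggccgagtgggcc
Gbp2 (chr3:142620584-142620633, + strand): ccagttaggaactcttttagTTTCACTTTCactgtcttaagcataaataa
Gbp7 (chr3:142530210-142530312, + strand): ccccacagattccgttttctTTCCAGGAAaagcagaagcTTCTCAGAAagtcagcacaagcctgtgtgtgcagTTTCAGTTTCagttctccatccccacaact
Irgm1 (chr11:48871421-48871470, - strand): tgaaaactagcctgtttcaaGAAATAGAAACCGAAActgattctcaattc
Igtp (chr11:58199491-58199551, + strand): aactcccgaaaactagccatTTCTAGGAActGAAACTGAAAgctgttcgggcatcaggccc
Irgm2 (chr11:58214882-58214942, + strand): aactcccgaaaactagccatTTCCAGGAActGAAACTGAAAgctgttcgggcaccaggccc
The Isg15 stretch holds 3 overlapping ISRE matches, while Ifit1 and Ifit3 hold 2 separate ones each. Gbp7 has 2 GAS matches upstream of its ISRE match. Igtp and Irgm2, neighbours on chromosome 11, have a GAS match next to an ISRE match, and their 61-base stretches differ at 2 positions. ISRE letters were found before 7 of 7 GTPase genes that have a window and before 9 of 21 of the other genes, beside 3.46% of all 27025 genes with a window. GAS letters were found before 4 of 7 and 4 of 21, beside 8.13% of all genes, and in Bst2, Igtp and Irgm2 they lie beside or over the ISRE letters. A gene with several windows was counted once if any of them held the letters. A match is a description of the letters and not a site shown to be in use.

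Spots over tissue were barcodes above a minimum number of UMIs (unique molecular identifiers, each standing for 1 captured transcript) set for each section. This gave 2249 Blank spots with a median of 9733 UMIs and 2471 Col_nHA spots with a median of 13815, out of 4992 barcodes in each file. All 4992 barcodes were the same in both files, as they are positions on the array and not cells. A spot can hold several cells of different types. Osteoblast marker genes summed to 32532 counts per 1000000 UMIs (CPM) in Blank and 21720 CPM in Col_nHA, so bone markers were present in both, but so were those of other tissues. Choroid plexus markers summed to 12204 CPM in Blank against 149 CPM in Col_nHA, and skeletal muscle markers to 6410 against 14947 CPM. Macrophage and monocyte markers stood at 6632 and 8906 CPM. Of the 14, 5 were at least 1.5-fold higher, beside 5.32% of all genes with a mean of at least 5 CPM. The median log2 ratio of the 14 was 0.18, and 2 of them had ratios below 1.

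Across the whole sections, the 29 genes outside the GTPase families were mostly higher in the Col_nHA section, whereas the GTPase genes were not. The 29 genes summed to 2130 CPM in Blank and 2716 CPM in Col_nHA, a ratio of 1.27 (1.26 to 1.29). Of the 29, 28 had a ratio above 1, beside 51.1% of all 11306 genes with a mean of at least 5 CPM over both sections. The median log2 ratio of the 29 was 0.39, beside 0.008 over all 11306. The 9 GTPase genes summed to 262 CPM in Blank and 261 CPM in Col_nHA, a ratio of 1.0 (0.97 to 1.03). Of the 8 that reached 5 CPM, 4 had a ratio above 1 and 4 below it, with a median log2 ratio of 0.03. As transcripts were summed over spots, more cells expressing a gene and more RNA per cell cannot be told apart. In a count of UMIs, the 26 genes left after the most abundant (Ifitm3, Ifi27l2a and Bst2) were set aside gave 3.0 UMIs per GTPase UMI in Blank (2.93 to 3.08) and 4.07 in Col_nHA (3.98 to 4.16). The 26 genes stand for the 29 below where levels are summed by region or spot, so that these 3 transcripts do not carry the sum. The choice moves the ratio: the section ratio of the 26 was 1.35 (1.33 to 1.37), against 1.27 for the 29.

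**Figure D1:**
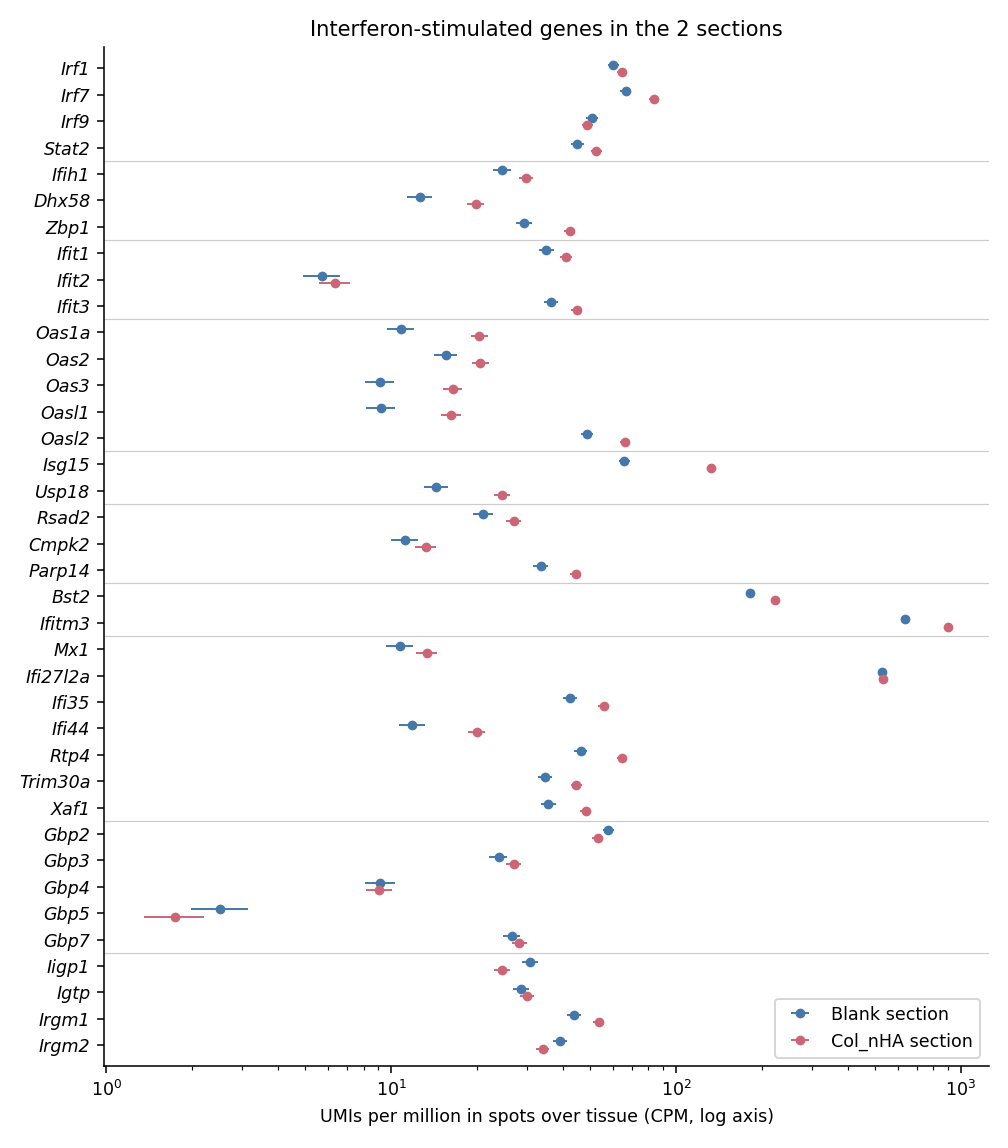
Level of each of the 38 genes in CPM (log axis) in spots of both sections, with exact 95% counting intervals; grey lines part the genes by role. Isg15 stood at 65.9 CPM in Blank and 133 in Col_nHA, while Gbp2 stood at 57.9 and 53.1 CPM.

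Of the 37 members that passed 5 CPM, 1 was at least 2-fold higher in Col_nHA, beside 1.88% of all genes tested, and 0 were at least 2-fold lower, beside 3.51%. At 1.5-fold, 7 were higher, beside 5.32%, and 0 lower, beside 7.68%. The 7 were Isg15, Oas1a, Oas3, Oasl1, Usp18, Ifi44 and Dhx58, all outside the GTPase families. The 38th member, Gbp5, was below the filter, with 77 Blank UMIs and 70 Col_nHA UMIs.

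The ISG15 system gave the largest ratios by role. Isg15, on chromosome 4 (chr4:156199424-156200818), encodes a ubiquitin-like protein that is attached to other proteins or secreted. It was counted 2022 times in Blank and 5344 times in Col_nHA, which is 65.9 and 133 CPM, a ratio of 2.02 (1.92 to 2.13). The lower bound lies under 2, so its place past 2-fold is within counting error. Usp18, which removes ISG15 from proteins and dampens signalling at the type I interferon receptor, stood at 14.4 and 24.5 CPM, a ratio of 1.70 (1.52 to 1.91).

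The oligoadenylate synthetase family came next, and all 5 genes had ratios above 1. Active synthetases of this family sense double-stranded RNA and activate RNase L. Oas1a (chr5:120896256-120907544) stood at 10.8 CPM in Blank and 20.4 in Col_nHA, a ratio of 1.88 (1.66 to 2.15). Its neighbour Oas3 stood at 9.12 and 16.5 CPM, a ratio of 1.81 (1.57 to 2.08). The oligoadenylate synthetase-like gene Oasl1, known to restrain translation of Irf7, stood at 9.18 and 16.2 CPM, a ratio of 1.77 (1.53 to 2.04). The remaining members of the family were past neither fold, with Oas2 at 1.32 (1.18 to 1.48) and Oasl2 at 1.36 (1.28 to 1.45). Oas1a belongs to a cluster of near-identical copies, and how reads shared by such copies were assigned was not examined, so its value is uncertain on that account.

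Among the sensors, Dhx58 (LGP2, a relative of the RNA helicases RIG-I and MDA5) stood at 12.6 CPM in Blank and 19.8 in Col_nHA, a ratio of 1.57 (1.39 to 1.78). The intervals of the 2 sections, which cover counting error only, did not touch. How many of all genes were alike in this was not counted. Zbp1, which senses left-handed nucleic acid and can trigger necroptosis, was at 29.3 and 42.3 CPM, and Ifih1, which encodes MDA5, at 24.6 and 29.7 CPM. Both ratios, 1.44 and 1.21, were under 1.5.

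The transcription factors of the response differed less. Irf7, the master factor for type I interferon genes, stood at 66.6 CPM in Blank and 83.5 in Col_nHA, a ratio of 1.25 (1.19 to 1.32). Stat2 and Irf9 are partners in the complex that binds the ISRE. Stat2 had a ratio of 1.17 (1.09 to 1.25), while Irf9, at 50.7 and 48.8 CPM, had a ratio of 0.96 (0.90 to 1.03) and was the only one of the 29 below 1. Irf1, whose printed promoter stretch carries GAS letters and no ISRE letters, stood at 60.2 and 64.3 CPM, a ratio of 1.07 (1.01 to 1.14).

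The 3 IFIT genes, whose proteins bind foreign RNA and block its translation, summed to a ratio of 1.20 (1.14 to 1.26). Ifit1 stood at 35.1 CPM in Blank and 41.2 in Col_nHA, and Ifit3 at 36.4 and 44.7 CPM. Ifit2, with 175 and 255 UMIs, had an interval from 0.91 to 1.36 that spans 1. Near-identical copies sit beside Ifit1 and Ifit3 on chromosome 19, and reads they share could move either value.

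Among the membrane proteins, Ifitm3, which blocks the entry of viruses at endosomes, was the most often counted member. It stood at 634 CPM in Blank and 898 in Col_nHA, a ratio of 1.42 (1.39 to 1.44). Bst2 (tetherin, which holds budding virus at the cell surface) was at 182 and 223 CPM, a ratio of 1.23 (1.19 to 1.27). Ifi27l2a, which encodes a small interferon-induced protein, was nearly level. It stood at 528 and 533 CPM, a ratio of 1.01 (0.99 to 1.03), and ran from 0.93 to 1.54 over the choices of spots and scaling.

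The remaining effectors lay between these. Ifi44 stood at 11.8 CPM in Blank and 19.9 in Col_nHA, a ratio of 1.69 (1.49 to 1.92). Rtp4, a chaperone of receptors, had a ratio of 1.40, Xaf1, a promoter of apoptosis, 1.35, and Ifi35 1.31. Rsad2 (viperin, which makes a chain-terminating nucleotide) stood at 21.01 and 26.9 CPM, a ratio of 1.28 (1.16 to 1.42), and its neighbour Cmpk2 had a ratio of 1.19. Parp14, which attaches ADP-ribose to proteins, had 1.33, Trim30a 1.29 and Mx1, a dynamin-like antiviral GTPase, 1.24. None of these except Ifi44 reached 1.5-fold.

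The GTPase genes went both ways, with every ratio of the 8 that passed between 0.80 and 1.22. Guanylate-binding proteins coat vacuoles that hold microbes and promote inflammasome activity, and p47 GTPases regulate such vacuoles and autophagy. Gbp2 (chr3:142620663-142638008), the most often counted, stood at 57.9 CPM in Blank and 53.1 in Col_nHA, a ratio of 0.92 (0.86 to 0.98). Irgm1, a regulatory p47 GTPase, was the highest in ratio, at 43.8 and 53.5 CPM or 1.22 (1.14 to 1.31). Iigp1, an effector p47 GTPase, was the lowest of the 8, at 30.7 and 24.5 CPM or 0.80 (0.73 to 0.87), and Irgm2, at 39.2 and 34.0 CPM, had 0.87 (0.80 to 0.94). The Igtp and Irgm2 promoter stretches are nearly the same, yet the interval of Irgm2 lay below 1 and that of Igtp, with a ratio of 1.05 (0.96 to 1.15), spanned it. The others, Gbp3 at 1.13, Gbp7 at 1.07 and Gbp4 at 0.99, were near 1, and Gbp5 below the filter had 0.69 (0.50 to 0.97). Over other choices of spots and scaling, 6 of the 9 (Gbp2, Gbp4, Gbp7, Igtp, Iigp1 and Irgm2) lay on both sides of 1, with Iigp1 from 0.73 to 1.27 and Gbp4 from 0.74 to 1.43. Both families hold close paralogs, so shared reads are a doubt for each single value here.

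**Figure D2:**
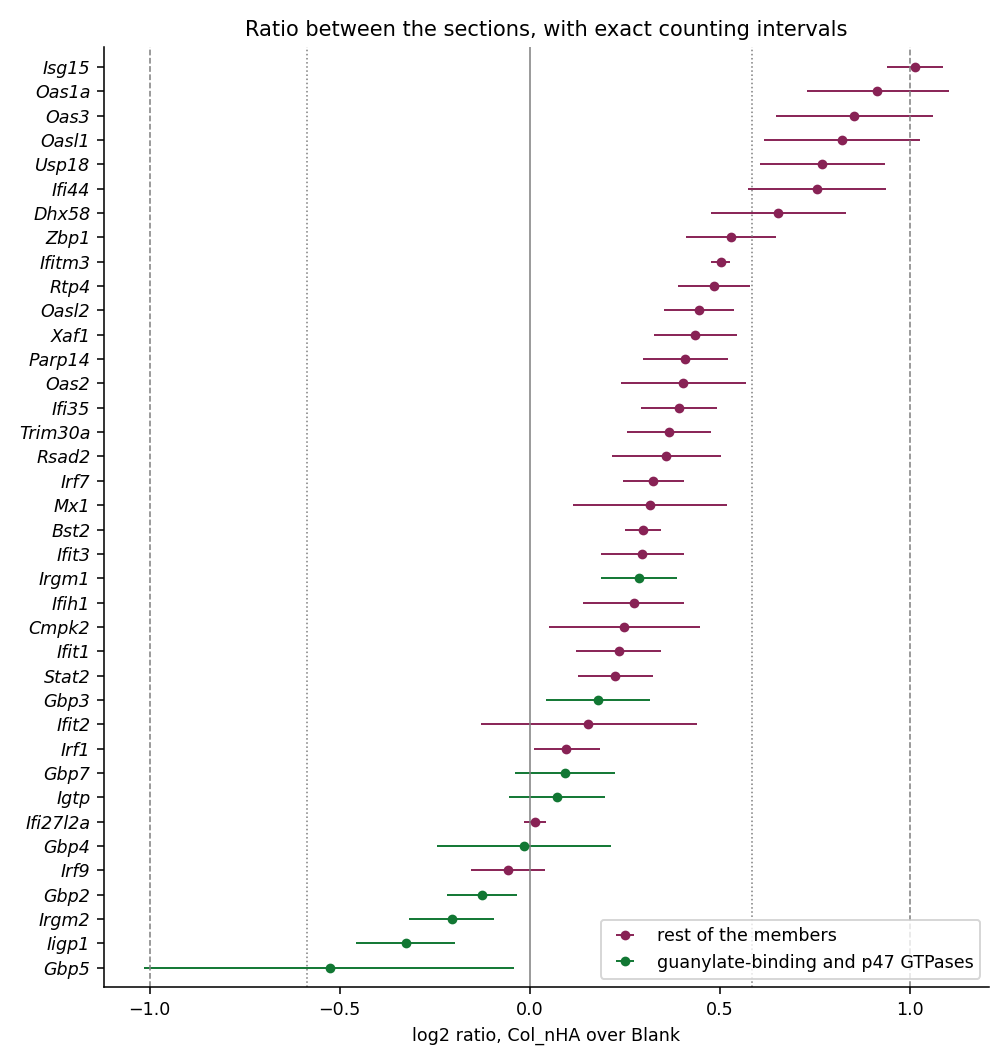
Log2 ratio of Col_nHA over Blank for each of the 38 genes with exact 95% counting intervals, ordered by ratio, with GTPase genes in green and the other 29 in purple; dashed lines mark 2-fold and dotted lines 1.5-fold. The GTPase genes lie around 0, from 0.69 for Gbp5 to 1.22 for Irgm1 as ratios, and the 7 genes past 1.5-fold are all from the other group.

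Among the 21 of the 29 genes that have a window, the median ratio was the same with and without ISRE letters. The 9 with the letters had a median ratio of 1.28 (range 1.17 to 2.02), and the 12 with a window but without the letters also had 1.28 (range 0.96 to 1.77). The 7 GTPase genes with a window, all with the letters, had a median of 1.05.

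The level of both groups in Col_nHA relative to Blank moved with which spots were summed. The GTPase median log2 ratio of 0.03 became -0.19 without the spots of region 11 and 0.39 without those of region 1, regions of spots that are described below. The median of the 29 genes, 0.39, became 0.31 and 0.66 and lay above the GTPase median each time. Region 11 held 53 Blank and 133 Col_nHA spots, and region 1 held 476 and 27, so neither removal fell evenly on the sections. Without region 1, 6 members were past 2-fold higher, beside 2.70% of all genes tested in that setting, and 20 past 1.5-fold, beside 6.89%. Without region 11 these counts were 0, beside 2.05%, and 4, beside 5.57%. Removal of spots in which over 2% of UMIs came from skin, muscle, fat, nerve, brain or choroid plexus markers, 664 in Blank and 352 in Col_nHA, gave medians of 0.22 for the GTPase genes and 0.56 for the others. There 5 members were past 2-fold higher, beside 1.72%, and 12 past 1.5-fold, beside 5.85%. Barcodes below the UMI threshold, which can hold free RNA and thin tissue, also carried these transcripts: the 26 genes stood there at 681 CPM in Blank and 1029 in Col_nHA, a ratio of 1.51 (1.44 to 1.58), and the GTPase genes at 245 and 311 CPM, a ratio of 1.27 (1.17 to 1.37).

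The rest of the interferon pathway was read from lists of genes for the steps upstream and beside the members. Of 21 interferon genes, 18 had 0 UMIs in both sections, where 3 counts would be 0.098 CPM in Blank and 0.075 CPM in Col_nHA. Ifnz had 8 and 7 UMIs, Ifng 8 and 6, and Ifnk 1 and 0, so no difference in ligand was detectable at this depth. Of 6 receptor genes, 5 passed the filter and 0 were past 1.5-fold in either direction, beside 5.32% of all genes higher and 7.68% lower. Ifngr1 stood at 131 CPM in Blank and 125 in Col_nHA, a ratio of 0.95 (0.91 to 0.99), Ifngr2 at 60.4 and 72.0 CPM, a ratio of 1.19, and the shared chain Il10rb at 77.7 and 90.3 CPM, a ratio of 1.16.

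All 9 genes for receptor kinases and inhibitors of signalling passed. Of the 9, 1 was past 1.5-fold higher, beside 5.32% of all genes, and 0 lower, beside 7.68%. It was Socs3, an inhibitor that many cytokines induce, at 36.0 CPM in Blank and 61.7 in Col_nHA, a ratio of 1.72 (1.60 to 1.84). The kinase gene Jak1 had a ratio of 0.98 and the phosphatase gene Ptpn6 1.32. Of 14 genes for nucleic acid sensing, 12 passed and 0 were past 1.5-fold in either direction, beside the same shares of all genes. Tmem173, which encodes STING, was at 1.36, Irf5 at 1.29, Trim25 at 1.20 and Myd88 at 1.1.

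A list of genes known to respond to interferon-gamma, outside the members, was read as well. Of 13 that passed, 2 were past 1.5-fold higher, beside 5.32% of all genes, and 1 lower, beside 7.68%. Cd274, the checkpoint ligand PD-L1, stood at 6.51 CPM in Blank and 10.4 in Col_nHA, a ratio of 1.60 (1.35 to 1.91). Cxcl10, a chemokine for T cells, was at 20.6 and 32.6 CPM, a ratio of 1.58 (1.44 to 1.74). Ciita, the master regulator of MHC class II, was at 8.40 and 5.10 CPM, a ratio of 0.61 (0.50 to 0.73). B2m, the light chain of MHC class I, had 1.19 and Tapbp 0.95, while Cxcl9, picked after its values were seen as the close relative of Cxcl10, had 0.86 (0.77 to 0.95).

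Spots were then grouped into 15 numbered regions by expression, with the members and pathway genes left out of the clustering. Regions are named by their leading genes only. Of these, 8 held at least 50 spots in Blank and 9 in Col_nHA, and 3 of them, regions 3, 8 and 11, did so in both. Some leading genes of region 11, such as Acod1, are themselves known to answer to interferon and had stayed in.

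In the Col_nHA section, all 9 GTPase genes and all 29 others were above their section level in region 11, beside 44.6% of all genes with a mean of at least 5 CPM. Each of the 38 was at its highest there among the 9 regions with at least 50 spots. How many of all genes were highest there was not counted. Region 11 was led by Acod1, Ly6c2, Clec4e, Ccl4 and Ms4a4c. Ly6c2 marks inflammatory monocytes, and Acod1 encodes the enzyme that makes itaconate in activated macrophages. The region held 133 Col_nHA spots. The GTPase genes summed to 808 CPM there (770 to 848), against 261 CPM over the section, and all 9 were at least 2-fold above their section level, with a median of 2.87 and a range of 2.52 to 5.64. Of the other 29 genes, 22 were at least 2-fold above, with a median of 2.30, beside 4.03% of all genes with a mean of at least 5 CPM. With fewer and larger regions, at resolution 0.3 of the clustering in place of 0.6, the highest levels in a Col_nHA region were 383 CPM for the GTPase genes and 1443 CPM for the 26 genes. In region 11 at resolution 0.6, Irf7 stood at 288 CPM against 83.5 CPM over the section and Gbp2 at 214 against 53.1 CPM. Rsad2 stood at 138 against 26.9 CPM and Gbp4 at 51.0 against 9.05 CPM. Isg15 was less concentrated, with 220 CPM in region 11, 210 CPM in region 9 (led by the osteoclast genes Oscar, Acp5 and Mmp9) and 198 CPM in region 7 (led by Saa3 and Dlk1). Cxcl10 at 225 CPM and Cxcl9 at 147 CPM stood high in region 11 too, whereas Ifng had 0 UMIs there.

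In the Blank section the highest levels were spread over more of its 8 regions with at least 50 spots. Region 1, with 476 spots and led by Myog, Myh3, Cfd, Mybph and Sln, which include genes of muscle being formed, held the highest level of 17 of the 29 genes and 4 of the 9 GTPase genes. How many of all genes were highest in region 1 was not counted. The GTPase genes summed to 477 CPM there (460 to 495) and the 26 genes to 1331 CPM, against 262 and 787 CPM over the section. All 38 genes were above their section level, beside 54.5% of all genes with a mean of at least 5 CPM, with medians of 1.84 for the GTPase genes and 1.75 for the other 29. Iigp1 stood at 79.2 CPM in region 1 against 30.7 CPM over the section, Ifi27l2a at 1325 against 528 CPM, and Irf7 at 153 against 66.6 CPM. Region 5 (led by Retnla, Scara5 and Dpp4) held the highest level of 8 members, Irf7 and Bst2 among them, region 11 that of another 8, Gbp2 and Irf1 among them, and region 3 that of Gbp5.

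**Figure D3:**
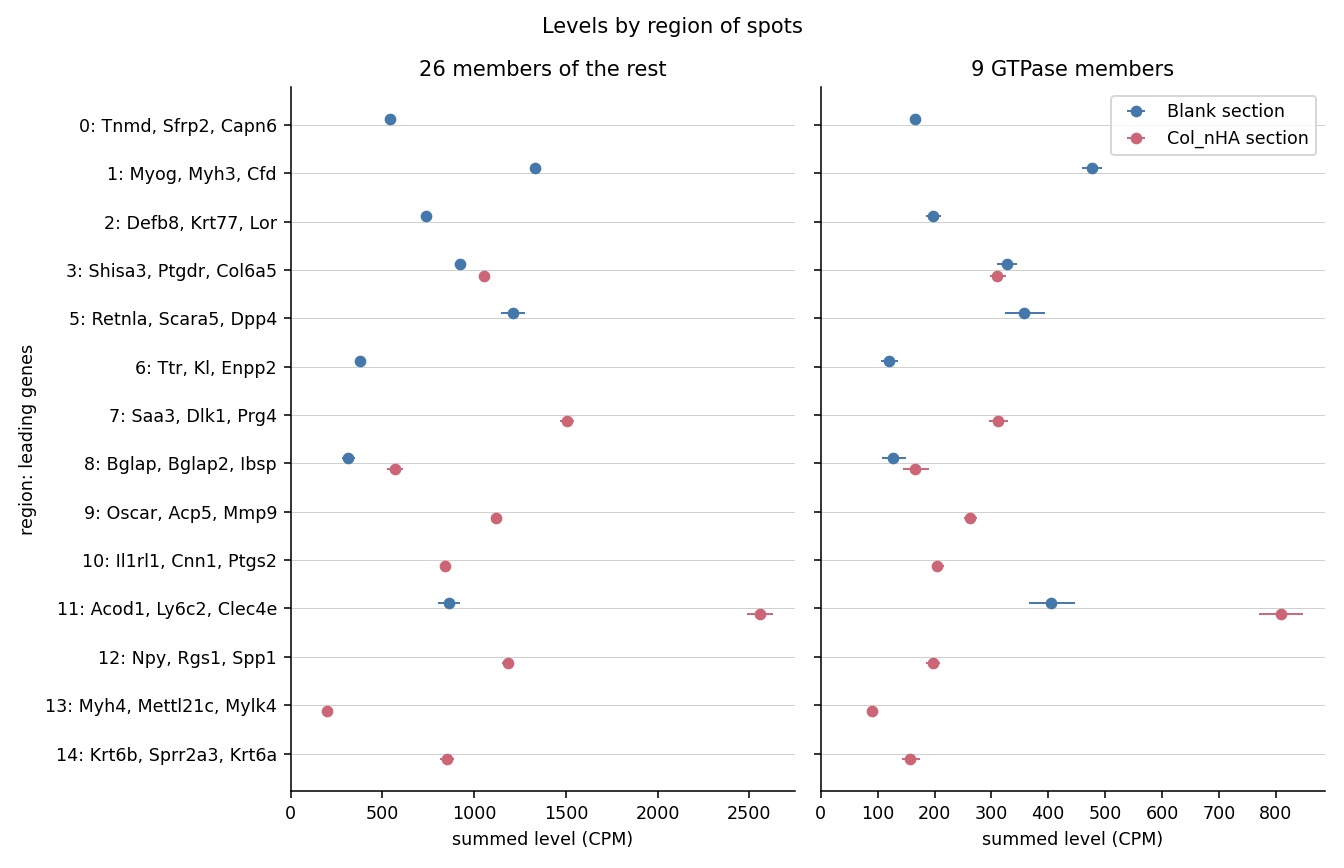
Summed level in CPM of the 26 genes (left; the rest, which is the genes outside the GTPase families without Ifitm3, Ifi27l2a and Bst2) and of the 9 GTPase genes (right) in each region with at least 50 spots of a section, with exact 95% counting intervals. Region 11 of Col_nHA stands apart at 2557 and 808 CPM, and in Blank region 1 is highest at 1331 and 477 CPM.

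The lowest GTPase levels were found in region 13 of Col_nHA, region 6 of Blank and region 8 of Blank. Region 13 of Col_nHA, led by Myh4 of fast muscle fibres, had 90.9 CPM for the GTPase genes and 200 CPM for the 26 genes. Region 8, led by the osteocalcin genes Bglap and Bglap2, had 127 CPM for the GTPase genes in Blank and 166 CPM in Col_nHA, and region 6 of Blank, led by Ttr of the choroid plexus, had 121 CPM. Region 14 of Col_nHA, led by the keratin gene Krt6b, had 158 CPM for the GTPase genes but 851 CPM for the 26 genes. Region 1 of Blank, where both were high, was led by muscle genes as well.

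Marker levels of immune cells were set beside the member levels in some of the regions. Region 12 of Col_nHA, led by Npy, Rgs1 and Spp1, had 1.90% of its UMIs in the macrophage and monocyte list and region 11 had 1.80%. The GTPase genes stood at 197 CPM in the former and 808 CPM in the latter. The 26 genes stood at 1182 and 2557 CPM. Region 12 also held the highest count of the 26 genes per GTPase UMI, 6.0 (5.60 to 6.44), and region 11 of Blank the lowest, 2.13 (1.88 to 2.40). Of 15 T and NK cell markers, none was at 0 in either section, but only 2 passed the filter, so most were low. They summed to 189 CPM in region 11 of Col_nHA and 23.6 CPM in region 12, and in Blank they were highest in region 1 at 107 CPM. The GTPase genes were also highest in these 2 regions of the sections, at 808 CPM in region 11 of Col_nHA and 477 CPM in region 1 of Blank. Region 2 of Blank, led by Defb8 and Krt77, had 98.8 CPM of them and 198 CPM of the GTPase genes, and region 14 of Col_nHA had 64.3 and 158 CPM. The part of macrophages or of T and NK cells in the member levels was not tested.

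Where both sections had the same region, the ratio depended on the region. In region 3, led by Shisa3, Ptgdr and Col6a5, the GTPase genes stood at 327 CPM in Blank and 311 in Col_nHA, a ratio of 0.95 (0.89 to 1.02), and the 26 genes at 925 and 1054 CPM, a ratio of 1.14 (1.09 to 1.19). In region 8 the ratios were 1.31 (1.05 to 1.63) and 1.81 (1.59 to 2.06). Of the 38 members, 24 had ratios above 1 in region 3, beside 57.8% of all genes with a mean of at least 5 CPM. There 13 intervals lay above 1, beside 19.6%, and 4 lay below 1, for which the share of all genes was not counted. In region 8, 33 members had ratios above 1, beside 60.2%, and 13 intervals lay above 1, beside 12.2%. In region 11 the ratios of the GTPase genes and the 26 genes were 1.99 (1.79 to 2.23) and 2.97 (2.76 to 3.19). All 38 members had ratios above 1 in region 11, beside 46.2% of all genes with a mean of at least 5 CPM. Their intervals lay above 1 for 37, beside 8.69%, with Gbp5 as the exception. Ifit3 stood there at 15.4 CPM in Blank and 111 in Col_nHA, and Irf7 at 58.6 and 288 CPM. Gbp2 stood at 124 and 214 CPM. Region 11 itself differed between the sections in its makeup: with 53 Blank and 133 Col_nHA spots, neutrophil markers summed to 1279 CPM in Blank and 319 CPM in Col_nHA, macrophage markers to 11798 and 18032 CPM, and T and NK markers to 76.1 and 189 CPM. In region 8, skeletal muscle markers summed to 202 CPM in Blank and 2019 in Col_nHA, and T and NK markers to 11.7 and 33.1 CPM. A list of 7 genes for plasmacytoid dendritic cells summed there to 12.6 and 58.2 CPM, but only 2 of the 7 passed the filter over the sections. Which cells its transcripts came from was not examined. In region 3, brain and meninges markers summed to 109 and 746 CPM and macrophage markers to 6285 and 11431 CPM. The part of these differences in the ratios was not tested.

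Within each section the level of the members varied widely from spot to spot. The 26 genes ran from 124 CPM at the 5th percentile of Blank spots through a median of 618 to 2139 CPM at the 95th, and in Col_nHA from 143 through 841 to 2693 CPM. The GTPase genes had medians of 194 and 191 CPM, and 433 Blank and 332 Col_nHA spots had 0 of their UMIs. The median spot held 2 GTPase UMIs in Blank and 3 in Col_nHA, so each spot's level is coarse. The share of spots with an Isg15 UMI, after thinning each spot to 2000 UMIs, was 11.4% (10.1 to 12.8) in Blank and 20.5% (18.9 to 22.2) in Col_nHA, and without thinning 41.4% and 62.8%. For Gbp2 it was 9.96% in both after thinning. At 500 UMIs, the share with Isg15 was 2.71% and 5.26% in spots and 2.27% and 4.58% in the barcodes below the threshold. Isg15 was therefore found in the latter nearly as often as over tissue at equal depth, so such shares cannot be read apart from free RNA.

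Spots rich in 1 group of genes were rich in the other. The 5% of spots with the largest share of UMIs in the GTPase genes, 113 in Blank and 124 in Col_nHA, had 3.94 times the level of the 26 genes found in the other spots in both sections (3.81 to 4.07 in Blank, 3.85 to 4.04 in Col_nHA). The median over the 29 genes was 3.90 times the level of the other spots in Blank and 3.64 times in Col_nHA. How many of all genes were higher in those spots was not counted. The order was alike in both, with a Spearman rho across the 29 genes of 0.88 as a description, since genes of the same spots are not independent. Mx1, at 8.88 and 7.89 times, Rsad2, at 8.21 and 9.28 times, Ifit2, at 7.57 and 10.2 times, Ifit3, at 7.13 and 7.82 times, and Cmpk2, at 6.07 and 8.05 times, were among the most concentrated. Ifitm3, at 1.93 and 1.62 times, and Irf9, at 2.0 and 1.56 times, were the least. Isg15 stood at 264 CPM in those Blank spots against 55.4 CPM elsewhere, and at 582 against 109 CPM in Col_nHA. In reverse, the spots richest in the 26 genes had 4.39 (4.15 to 4.65) and 4.04 (3.85 to 4.25) times the GTPase level. The medians over the 9 genes were 4.74 and 4.60.

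**Figure D4:**
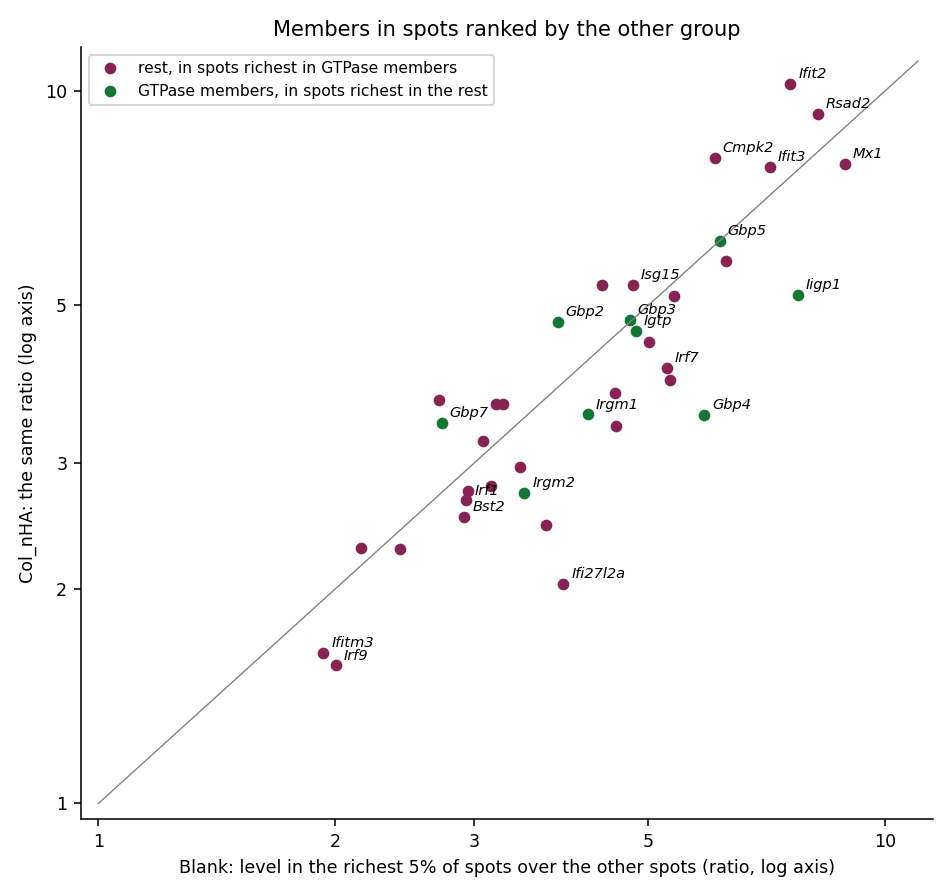
Level of each gene in the richest 5% of spots over its level in the other spots, Blank on the horizontal and Col_nHA on the vertical log axis, with the spots ranked by the other group of genes and the line of equality drawn. The 29 genes (purple) run from Irf9 and Ifitm3 at the lower left to Ifit2, Rsad2 and Mx1 at the upper right, and the 9 GTPase genes are in green. How many of all genes would lie above 1 was not counted.

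These rich spots lay in different regions in the sections. Of the 113 Blank spots richest in GTPase genes, 61 were in region 1, which held 21.2% of the section's spots. Of the 124 in Col_nHA, 60 were in region 11, which held 5.38%. T and NK markers, of which 2 of 15 passed the filter, were 6.04 times as high in the GTPase-rich spots in Blank and 3.90 times in Col_nHA. Macrophage markers were 1.38 and 1.39 times as high, and dendritic cell markers 3.28 and 1.65 times. Adipose markers stood at 3.30 times in Blank and 0.89 times in Col_nHA, and mast cell markers at 2.73 and 0.88 times. Muscle markers differed in direction, at 2.55 times in Blank and 0.09 times in Col_nHA. The part of these cells in the member levels was not tested.

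Spots of both sections were also split into 5 classes, of equal size over both sections together, by their share of UMIs in the macrophage and monocyte list. The 26 genes were higher in Col_nHA in every class, with ratios of 1.22, 1.62, 1.5, 1.22 and 1.26 from the lowest to the highest. The GTPase ratios were 1.03, 1.11, 1.21, 0.91 and 0.84 in the same order. In the highest class, 271 Blank spots had 370 CPM and 673 Col_nHA spots 312 CPM of GTPase transcripts, a ratio of 0.84 (0.80 to 0.89), while their macrophage shares were 1.28% and 1.66%. In Blank the GTPase level was higher in each class than in the one below it, from 147 CPM in the lowest. In Col_nHA it was 151, 255, 307, 285 and 312 CPM, so the step from the third class to the fourth was downward.

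**Figure D5:**
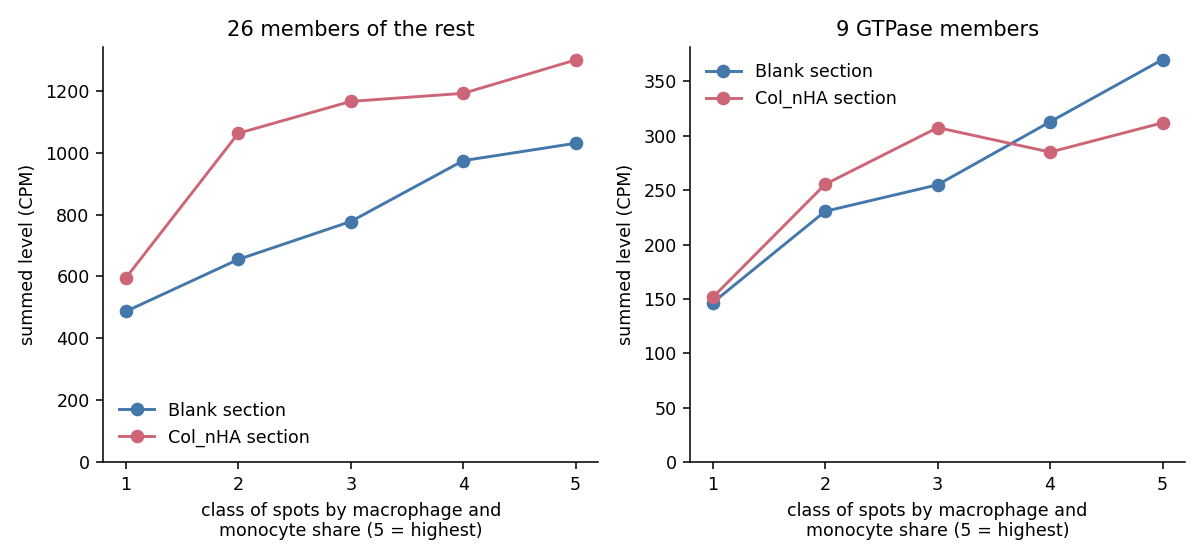
Summed level in CPM of the 26 genes (left; the rest without Ifitm3, Ifi27l2a and Bst2) and of the 9 GTPase genes (right) in 5 classes of spots by their share of macrophage and monocyte UMIs, for both sections. The Col_nHA line lies above the Blank line in every class for the 26 genes, and below it in the 2 highest classes for the GTPase genes, where the ratios were 0.91 and 0.84.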

How the data were processed

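RNA was measured in 2 sections, 1 per group. The deposited matrices hold UMI counts per gene and barcode, whole and not normalized by the authors, per the file headers, which name Cell Ranger 4. Space Ranger and mm10 are given by the submitters' processing notes, with no version given in the sources used here. The labels' extraction text describes a droplet single-cell library, while the labels call the samples spatial and each file holds 4992 barcodes. No image or coordinates were used. A gene of the signalling list is not reported here.

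For each section, UMIs were added up over its spots and expressed as CPM; intervals are exact Poisson (levels), conditional binomial (ratios) and Clopper-Pearson (shares) at 95%. Totals were 30705849 UMIs over Blank and 40202268 over Col_nHA spots. The filter was a mean of 5 CPM over both sections. Regions came from Leiden clustering (10000 counts per spot, log, 2000 variable genes, 30 components, 15 neighbours, resolution 0.6, 103 member and pathway genes left out), without batch integration; no doublet caller was run. Calculations were tested on simulated data. Sequences and positions are RefSeq's on GRCm38.p6.

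Every member was to be named, with full values for those past 1.5-fold and the 3 most abundant of each group; of each pathway list, the 2 most abundant and the 2 with the largest ratio in either direction; other values printed, such as those by region and of Cxcl9, Cxcl10 and the rich spots, were chosen after they were seen. The members, lists and thresholds were chosen with earlier results of these data known. Alternatives were other UMI thresholds, edgeR's TMM and median-of-ratios scaling, totals that leave out genes of mitochondria, ribosomes and haemoglobin, the mean of per-spot CPM, spots of other tissues left out, other CPM minimums, depths of thinning, resolutions and 3 strata; leaving out choroid plexus spots, region 11 or region 1 was added after the data were seen. Tools were scanpy 1.11.5 and scipy 1.17.1 under Python 3.11.15 for counts and regions, and edgeR 4.0.16 under R 4.3.3 for the TMM factors.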

Additional observations from a re-analysis of the deposited data

How the results depend on the processing

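Over 12 settings, the reported one included, 25 of the 29 genes kept a ratio above 1. The 4 others and 6 of the 9 GTPase genes lay on both sides of 1. Settings without region 11 or region 1, in which members stood high, are among the 12 and were added after the data were seen. The share of all genes that kept a ratio above 1 was not computed. Isg15 ran from 1.94 to 2.39, so the count past 2-fold higher, 1 as reported, was 0 at 1.5 times the UMI threshold, without choroid plexus spots and without region 11. Without spots of other tissues it was 5 (1.72% of all genes), with 12 past 1.5-fold (5.85%; 7 as reported) and median log2 ratios of 0.22 for the GTPase genes (0.03) and 0.56 for the others (0.39). Without region 11, 4 were past 1.5-fold (5.57%) and the GTPase median was -0.19. Without region 1 the counts were 6 (2.70%) and 20 (6.89%) and the medians 0.39 and 0.66. Region 11 held 4.89% of the GTPase UMIs of Blank and 15.8% of those of Col_nHA, and region 1 held 34.9% and 0.87%. Each of these removals therefore took a larger part from 1 section than from the other. The cause of the shifts was not tested. TMM and median-of-ratios scaling moved the median of all genes to 0.052 and 0.056. The highest region levels in Col_nHA, 808 and 2557 CPM, were 383 and 1443 CPM at resolution 0.3 (12 regions) and 752 and 2341 CPM at 1.0 (21 regions). Spearman rho across spots between the GTPase genes and the 26 genes was 0.46 in Blank and 0.54 in Col_nHA, and 0.21 and 0.24 after thinning to 2000 UMIs. With 3 strata the GTPase ratio in the highest was 0.90. Depth limits the ligands and Gbp5, at 77 and 70 UMIs. No paired analysis was possible because each group holds 1 library.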
